A study of Homo sapiens with 14 samples.

Results

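CUTLL1 cells with a short hairpin that targets JMJD3 (the product of KDM6B) were set against CUTLL1 cells with one that targets UTX (the product of KDM6A). The members of the comparison were all genes with at least 50 counts in either of these count columns. They came to 18287 of the 55075 genes in the deposited tables, and 12678 of them were protein-coding. The values at the threshold were alike, with a median log2 ratio of 0.30 over the 66 members whose higher column held 50 counts and of 0.21 over the 81 genes at 49 counts.

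The study read RNA from CUTLL1 and CEM, both established human lines of T cell acute lymphoblastic leukemia, in 14 samples. CUTLL1 had 3 samples with the JMJD3 hairpin (shJMJD3), 2 with the UTX hairpin (shUTX) and 3 with a hairpin against Renilla luciferase (shRenilla), a gene that human cells lack. CEM had 2 samples of each. All hairpins were delivered with a retrovirus, so the control cells carried a virus and a hairpin too. The labels name 1 target per group and give no hairpin sequence and no time after infection, so an effect of a hairpin outside its target cannot be told apart from the loss of the target. The deposited tables hold 1 pooled count column per hairpin and line. No ratio within CUTLL1 therefore has a replicate check, and no p-value is given for one.

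JMJD3 and UTX are related enzymes that demethylate lysine 27 on histone H3, whose methylation is laid down by the Polycomb complex PRC2 and linked to silent genes. UTX also sits in the complexes of the H3K4 methyltransferases KMT2C and KMT2D and is mutated in some T cell leukemias. JMJD3 is induced by inflammatory signals in macrophages. CUTLL1 carries a rearranged NOTCH1 gene and grows on NOTCH1 signalling, which switches on MYC, HES1 and DTX1. The comparison asked which genes differ between cells short of one demethylase and cells short of the other.

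Several interferon-stimulated genes were higher with shJMJD3 than with shUTX and than in the control. Type I interferon acts through the factor ISGF3, which binds the interferon-stimulated response element, a repeat of GAAA blocks. The promoters of 3 genes that were higher with shJMJD3 and of 1 that was lower are given here to show that both kinds hold the repeat. They are RefSeq sequences on GRCh38.p14, read 5′ to 3′ on the gene's strand from 250 bases before to 50 bases after the start, and capitals mark each match to GAAA, any 2 bases and GAAA again, on either strand (overlapping matches run together). OAS3 lies at chr12:112938224-112938523 on the plus strand, BST2 at chr19:17405581-17405880 on the minus strand, GBP1 at chr1:89065159-89065458 on the minus strand and IFIT1 at chr10:89392373-89392672 on the plus strand.
OAS3: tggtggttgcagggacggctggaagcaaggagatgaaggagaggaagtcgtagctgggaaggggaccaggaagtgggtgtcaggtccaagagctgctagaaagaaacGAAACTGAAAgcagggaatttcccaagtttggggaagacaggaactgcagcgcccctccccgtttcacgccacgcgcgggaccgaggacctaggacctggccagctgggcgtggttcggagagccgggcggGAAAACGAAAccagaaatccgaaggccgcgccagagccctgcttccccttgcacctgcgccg
BST2: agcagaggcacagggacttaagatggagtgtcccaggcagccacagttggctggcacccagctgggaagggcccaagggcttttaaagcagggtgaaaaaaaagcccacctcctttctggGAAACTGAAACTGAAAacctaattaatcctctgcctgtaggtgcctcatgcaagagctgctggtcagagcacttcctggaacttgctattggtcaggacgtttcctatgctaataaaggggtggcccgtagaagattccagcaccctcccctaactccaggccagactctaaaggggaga
GBP1: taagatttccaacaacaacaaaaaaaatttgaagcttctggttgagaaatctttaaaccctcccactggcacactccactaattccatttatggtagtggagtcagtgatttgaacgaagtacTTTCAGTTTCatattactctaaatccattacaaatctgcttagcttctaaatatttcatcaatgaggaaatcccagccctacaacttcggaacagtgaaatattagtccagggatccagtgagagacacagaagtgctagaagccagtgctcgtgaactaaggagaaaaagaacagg
IFIT1: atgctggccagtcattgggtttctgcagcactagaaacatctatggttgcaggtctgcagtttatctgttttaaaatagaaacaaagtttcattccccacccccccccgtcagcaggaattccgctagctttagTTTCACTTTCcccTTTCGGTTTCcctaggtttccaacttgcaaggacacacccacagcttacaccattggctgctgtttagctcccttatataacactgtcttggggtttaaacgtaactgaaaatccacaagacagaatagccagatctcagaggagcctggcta
Of the interferon-stimulated genes in the list, 11 of those at least 1.5-fold higher with shJMJD3 had a promoter in the table and 9 of these 11 held the repeat. Among those at least 1.5-fold lower, 4 of 4 held it. Of all measured genes of the list, whatever their ratio, 29 had a promoter there and 20 of these (69.0%) held it. Over all 27305 symbols with a promoter in that table, 1195 (4.38%) held it. A match is a run of letters and was not tested as a binding site.

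The shJMJD3 column held 174301733 counts and the shUTX column 101792401. The control column appeared in 2 versions. The table with shJMJD3 gave a larger shRenilla column of 258014046 counts, and the table with shUTX a smaller one of 144394369. The larger was at or above the smaller in every gene, and their difference, called the remainder here, held 113619677 counts. Small non-coding RNA took 11.7% of the counts with shJMJD3, 2.58% with shUTX, 9.33% in the larger control column, 1.97% in the smaller and 18.7% in the remainder. The columns thus fell into those rich in small RNA (shJMJD3, the larger control, the remainder) and those poor in it (shUTX, the smaller control). In CEM no column exceeded 0.0512%. The labels' protocols name both poly-A selection and ribosomal RNA depletion, and the sources used here do not say which sample had which, so hairpin and RNA selection cannot be told apart from these columns.

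**Figure D1:**
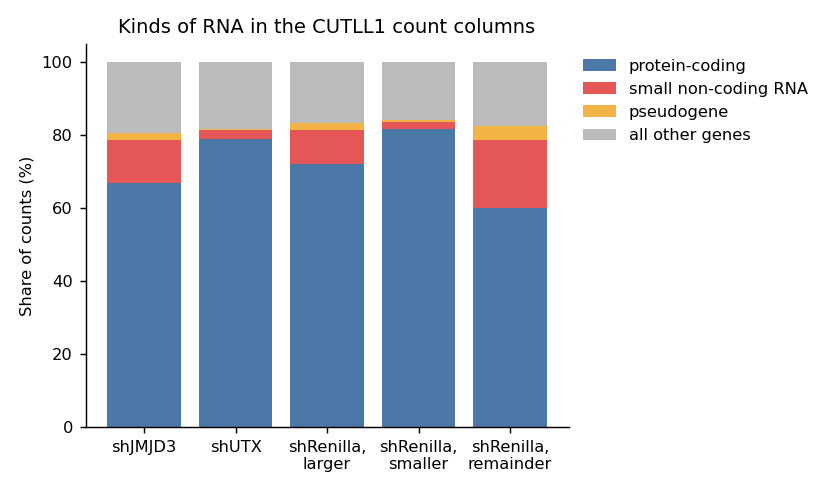
Share of counts (%, vertical axis) by kind of gene in the shJMJD3, shUTX, larger shRenilla, smaller shRenilla and remainder columns of CUTLL1. Small non-coding RNA takes 11.7% with shJMJD3 and 2.58% with shUTX, and the control columns split in the same way.

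Some genes were read in large numbers with shJMJD3 and hardly at all with shUTX. Of the members, 769 had 3 counts or fewer with shUTX, and 637 of these also had 3 or fewer in the smaller control column, while 736 had at least 50 in the remainder. No member had 3 or fewer with shJMJD3. Pseudogenes made up 480 of the 769 and small non-coding RNAs 36. Among all 18287 members 1709 were pseudogenes and 369 small non-coding RNAs. The U1 small nuclear RNA genes RNU1-1 to RNU1-9, which encode near-identical spliceosomal RNAs, each held between 812669 and 822517 counts with shJMJD3. With shUTX 7 of the 9 held 0 counts and the highest held 149. The paired histone genes HIST2H4A and HIST2H4B held 188443 and 188324 counts with shJMJD3 and both held 0 with shUTX. The 10 highest ratios among protein-coding members at 200 counts or more included copies in the RGPD, SLX1 and HIST2H families. Counts of such copies are uncertain, since the rule by which reads matching several copies were assigned is not given. RN7SK, the RNA that restrains the elongation factor P-TEFb, was at 20609.6 CPM (counts scaled to a common column total) with shJMJD3 and 760.2 with shUTX, against 23727 in the larger and 634 in the smaller control column.

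Because of this split, each ratio is given in 2 forms. The log2 ratio is shJMJD3 over shUTX, scaled with TMM, a trimmed mean that centres most genes on 0, and with a prior count of 2. The control-matched ratio divides shJMJD3 by the larger control column and shUTX by the smaller, which is how the authors paired them, and then takes the log2 of one quotient over the other. A CUTLL1 ratio below that is not otherwise named is shJMJD3 over shUTX. Its matched form can be nearer to 0 or further from it. The control-part difference is the log2 ratio of the remainder over the smaller control column, with no knockdown in it. Which libraries each column holds is not given. Whether the control columns are split in the same mix as the hairpin columns was not tested, so matching need not cancel the split. Intervals are exact binomial 95% intervals and cover counting error only, and no molecular identifiers are named in the labels. Values given for the control columns run larger column first, then smaller. CPM use the whole column total, so a CPM quotient of shJMJD3 over shUTX lies 0.33 below the TMM ratio on the log2 scale, before the prior count.

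Among all members 2680 (14.7%) were at least 2-fold higher with shJMJD3 than with shUTX and 306 (1.67%) at least 2-fold lower. Scaled to column totals in place of TMM, the counts were 2318 and 860. That scaling lowers a log2 ratio by 0.33, less where a column holds few counts and the prior count weighs in, so ratios and list medians a little above 0 change sign under it. Of the 2680 higher genes, 2185 were also at least 2-fold higher in the remainder than in the smaller control, and 706 were still at least 2-fold higher in the control-matched ratio. Of the 306 lower genes 99 had a control-part difference past 2-fold the same way, and 193 were still at least 2-fold lower in the matched ratio. Within 1.5-fold between the control parts were 202 of the 2680 higher genes and 121 of the 306 lower, beside 11078 of all 18287 members. Pseudogenes had a median log2 ratio of 3.03 and 69.3% of the 1709 were at least 2-fold higher. Among protein-coding members the counts were 922 higher (7.27%) and 222 lower (1.75%), with 422 and 144 still past 2-fold in the matched ratio. Across protein-coding members the log2 ratio correlated with the control-part difference at a Pearson r of 0.66 and a Spearman rho of 0.39 (12678 genes of the same columns, which are not independent replicates).

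**Figure D2:**
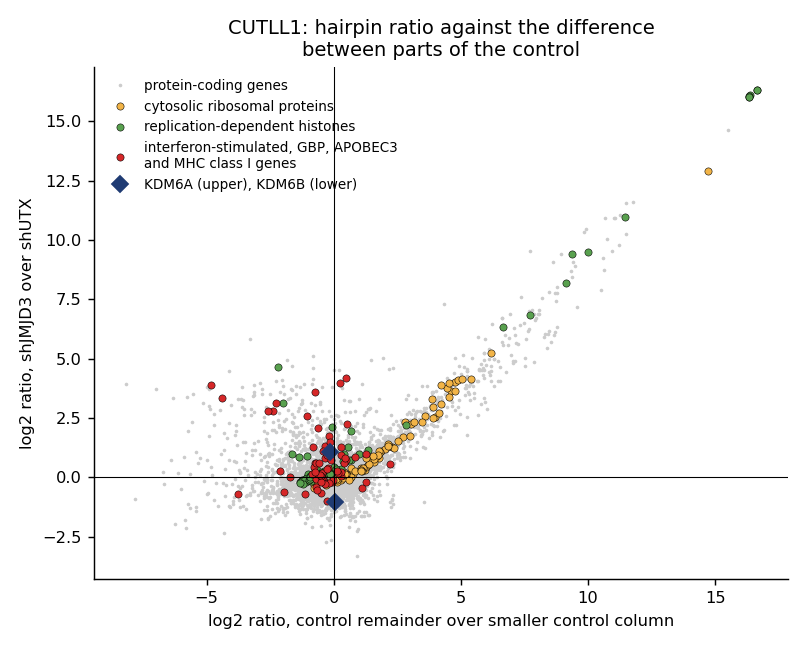
Log2 ratio of shJMJD3 over shUTX (vertical axis) against the log2 ratio of the control remainder over the smaller control column (horizontal axis) for protein-coding members of CUTLL1. Ribosomal protein genes and the highest histone genes lie on the rising diagonal, while the highest interferon-stimulated genes lie above 2 at control-part differences from -4.82 to 0.47.

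The targeted genes stood in the order their labels give. KDM6B was at 10.9 CPM with shJMJD3 and 28.2 CPM with shUTX, against 18.8 and 21.5 CPM in the larger and smaller control columns, a log2 ratio of -1.04 (-1.12 to -0.96) and a matched ratio of -1.07. KDM6A was at 32.5 CPM with shJMJD3 and 19.3 CPM with shUTX, against 35.8 and 43.0 CPM in the control columns, a log2 ratio of 1.09 (1.01 to 1.16) and a matched ratio of 1.13. Each gene was thus lowest under its own hairpin. Both also lay about alike in both parts of the control, with control-part differences of 0.03 and -0.17. The knockdown was partial in both cases: relative to its own control column, KDM6B stood at a log2 ratio of -0.64 with shJMJD3 and KDM6A at -1.13 with shUTX. KDM6B stood 0.42 above the control with shUTX, and KDM6A stood at 0.00 with shJMJD3.

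Interferon-stimulated genes did not move as 1 group, and most lay within 1.5-fold. Of 38 measured of 40 listed, 13 were at least 1.5-fold higher with shJMJD3 than with shUTX and 5 at least 1.5-fold lower, where the shares over all protein-coding members were 11.6% and 6.07%. In the matched ratio 13 were higher and 4 lower (over all protein-coding members, 7.17% and 5.86%). These shares are also the measure for the counts of the other protein-coding lists below. The median of the list was 0.12, against -0.01 for all protein-coding members. Control-part differences over the list had a median of -0.45, against -0.15 for all protein-coding members. Between the control parts, 3 genes of the list were at least 1.5-fold higher in the remainder and 16 lower. Of all 12678 protein-coding members, 8689 lay within 1.5-fold between these parts. The highest ratios were those of OAS3 and OAS2, oligoadenylate synthetases, which sense double-stranded RNA and activate RNase L. OAS3 was at 10.8 CPM with shJMJD3 and 0.727 CPM with shUTX, against 1.05 and 1.07 CPM in the larger and smaller control columns, a log2 ratio of 4.19 (3.88 to 4.57). OAS2 was at 3.63 CPM with shJMJD3 and 0.275 CPM with shUTX, against 0.496 and 0.540 CPM in the control columns. Both were far above every other CUTLL1 column with shJMJD3 and somewhat below the controls with shUTX. OAS1 and OASL held 112 and 89 counts with shJMJD3 and 8 and 8 with shUTX, log2 ratios of 3.12 and 2.79. They held 10 and 13 counts in the smaller control column and 0 and 0 in the remainder.

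Other antiviral genes were also highest with shJMJD3, with shUTX between the control columns. BST2, which encodes the tetherin that holds budding virions at the cell surface, was at 8.89 CPM with shJMJD3 and 1.08 CPM with shUTX, against 0.810 and 1.42 CPM in the control columns. LGALS3BP, a secreted galectin-binding glycoprotein, was at 55.7 CPM with shJMJD3 and 4.69 CPM with shUTX, against 3.95 and 6.93 CPM in the control columns. Their log2 ratios were 3.35 and 3.90 and their matched ratios 3.94 and 4.49. Both were low in the remainder of the control, at 0.0352 and 0.158 CPM, so the shJMJD3 column exceeded both parts. MX1, a dynamin-like inhibitor of influenza virus, had a log2 ratio of 2.57 (392 counts with shJMJD3 and 47 with shUTX), and IFIT3, an RNA-binding antiviral protein, one of 2.81 (185 counts with shJMJD3 and 18 with shUTX). The control-part differences of MX1 and IFIT3 were -1.05 and -2.40.
The list's other genes at least 1.5-fold higher were PARP14 (2.10), PARP9 (1.34), IFI44 (0.74), IFIT5 (0.60) and IRF1 (0.59), given as log2 ratios. The rest lay within 1.5-fold or were lower. ISG15, which is among the most widely induced targets of interferon, had a log2 ratio of -0.22, and IRF7, the factor that amplifies interferon production, one of -0.11. IFIT1, whose protein binds viral RNA caps, was at 0.866 CPM with shJMJD3 and 2.16 CPM with shUTX, against 0.919 and 1.13 CPM in the control columns. The shUTX column was the high one there, and the log2 ratio was -0.98 (-1.29 to -0.68). MX2, a relative of MX1 that acts on HIV, was the most abundant of the lower genes, at 62.4 CPM with shJMJD3 and 122 CPM with shUTX, against 102 and 132 CPM in the control columns. HERC5, EPSTI1 and ISG20 made up the rest of the lower genes, with log2 ratios of -0.70, -0.71 and -0.62 and matched ratios of -0.40, -0.12 and -0.19. MX2 had a log2 ratio of -0.64 and a matched ratio of -0.49. In MX2 and these last 3 the matched ratio was nearer to 0 and within 1.5-fold, while IFIT1 had one of -0.90. IFI44 and IFIT5 also came within 1.5-fold, with matched ratios of 0.53 and 0.44. The matched counts of higher and lower genes thus include other members of the list.

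**Figure D3:**
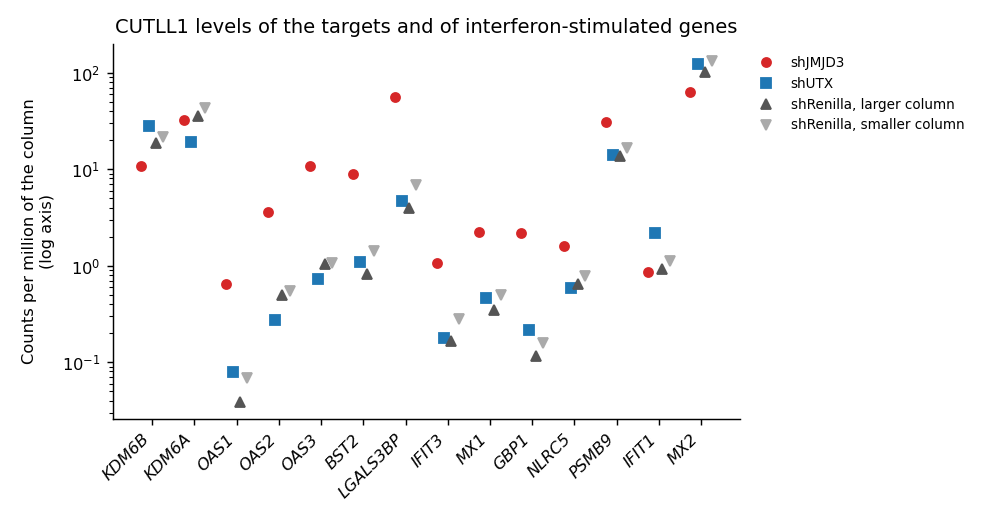
Level in CPM (vertical log axis) of KDM6B, KDM6A and 12 genes of the interferon, GBP and antigen presentation lists in the shJMJD3, shUTX, larger shRenilla and smaller shRenilla columns of CUTLL1, with 1 point per pooled column. The shJMJD3 points stand above the other columns from OAS1 to PSMB9 and at the bottom for IFIT1 and MX2.

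Guanylate-binding proteins, GTPases that attack intracellular pathogens, and APOBEC3 enzymes, which deaminate cytidines in viral DNA, were higher with shJMJD3 in 7 of 8 measured genes and lower in 0. In the matched ratio 5 were higher. The shares higher over all protein-coding members were 11.6% in the ratio and 7.17% in the matched ratio. GBP1 held 382 counts with shJMJD3 and 22 with shUTX, against 30 and 23 in the larger and smaller control columns, a log2 ratio of 3.58 (3.06 to 4.37). APOBEC3C had a log2 ratio of 2.23 (289 counts with shJMJD3 and 44 with shUTX) and APOBEC3B one of 1.29 (63 counts with shJMJD3 and 18 with shUTX). These are low counts beside the column totals. APOBEC3F, at 0.99, had a matched ratio of 0.40.

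The machinery of MHC class I antigen presentation leaned the same way at higher levels. Of 17 genes, 9 were at least 1.5-fold higher with shJMJD3 and 0 lower, with 9 and 0 in the matched ratio. Over all protein-coding members 11.6% were higher and 6.07% lower, with 7.17% and 5.86% in the matched ratio. The median log2 ratio was 0.61. NLRC5, the transactivator of MHC class I genes, was at 1.61 CPM with shJMJD3 and 0.589 CPM with shUTX, against 0.651 and 0.790 CPM in the control columns. PSMB9, an immunoproteasome subunit, was at 31.1 CPM with shJMJD3 and 13.9 CPM with shUTX, against 13.8 and 16.5 CPM in the control columns. The log2 ratios were 1.76 and 1.5. The peptide transporter genes TAP1 and TAP2 had ratios of 0.73 and 1.29, the peptide trimming enzyme ERAP2 one of 1.10 (202 CPM with shJMJD3 and 118 CPM with shUTX). The heavy chains HLA-B and HLA-C stood at 0.93 and 0.82, and B2M, the light chain, at 0.13. Reads of HLA genes, which are alike and vary between people, are uncertain. Control-part differences over this list had a median of -0.28.

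TNFRSF10A, which encodes the TRAIL receptor DR4, held 438 counts with shJMJD3 and 4 with shUTX, against 61 in the larger and 59 in the smaller control column. Its log2 ratio was 5.83 (4.96 to 8.21), with shJMJD3 above the control and shUTX below it, and its control-part difference was -3.30. FAS was at 2.06 CPM with shJMJD3 and 0.658 CPM with shUTX, against 0.814 and 1.25 CPM in the control columns, a log2 ratio of 1.95. The ligand TNFSF10 (TRAIL) had a log2 ratio of 0.80 and a matched ratio of 1.25. BAK1, a pore-forming protein of mitochondrial apoptosis, had a ratio of 2.74 but a matched ratio of 0.73 and a control-part difference of 3.23. Over the list of BCL2 family and death receptor genes 4 of 23 were at least 1.5-fold higher and 1 lower. The shares over all protein-coding members were 11.6% and 6.07%. In the matched ratio 6 of the list were higher and 0 lower, beside 7.17% and 5.86% over all protein-coding members.
JAK3, the kinase paired with the common cytokine receptor chain, was at 8.76 CPM with shJMJD3 and 1.13 CPM with shUTX, against 1.17 and 2.00 CPM in the control columns, a log2 ratio of 3.27 (3.01 to 3.57), beside a control-part difference of -3.57. The feedback inhibitors SOCS2 and CISH had ratios of 1.77 (98 counts with shJMJD3 and 20 with shUTX) and 1.05 (98 counts with shJMJD3 and 34 with shUTX), and SOCS3 one of 0.63. In the list of IL7 receptor and JAK-STAT genes 4 of 17 were higher and 0 lower, both in the ratio and in the matched ratio.

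The genes with the largest lesser value of the ratio and the matched ratio, chosen by rule among protein-coding members, all held 49 counts or fewer with shUTX. IL26, a T cell cytokine, had 170 counts with shJMJD3 and 2 with shUTX. BIN2, a membrane-bending protein of blood cells, had 275 with shJMJD3 and 5 with shUTX. NCS1, a neuronal calcium sensor, had 1243 with shJMJD3 and 34 with shUTX, and APOL1, the trypanosome lytic factor, 174 with shJMJD3 and 4 with shUTX. ANXA2, a calcium-dependent membrane-binding annexin, was the most abundant, at 12.1 CPM with shJMJD3 and 0.481 CPM with shUTX, against 0.764 and 0.540 CPM in the control columns. HS3ST3A1, a heparan sulfate sulfotransferase, and UCHL1, a neuronal ubiquitin hydrolase, held 365 and 50 counts with shJMJD3 and 0 with shUTX. Set against a floor of 3 counts in the shUTX column, their log2 ratios were at least 6.48 and 3.62. SPR, the last enzyme of tetrahydrobiopterin synthesis, had 86 counts with shJMJD3 and 1 with shUTX, and ATF7IP2, a relative of the SETDB1 partner ATF7IP, 349 with shJMJD3 and 10 with shUTX. In the control columns these 10 genes, TNFRSF10A included, lay below the shJMJD3 level in CPM.

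The lowest genes had smaller ratios than the highest. EHD3, an endosomal recycling ATPase, held 6 counts with shJMJD3 and 58 with shUTX, against 42 and 20 in the larger and smaller control columns, a log2 ratio of -3.29 (-5.22 to -2.51). CALCRL, the receptor for adrenomedullin and CGRP, held 24 counts with shJMJD3 and 125 with shUTX, against 137 and 95 in the control columns, a ratio of -2.71. SYNDIG1, a regulator of excitatory synapses, was at 0.585 CPM with shJMJD3 and 3.58 CPM with shUTX, against 2.21 and 1.94 CPM in the control columns, a ratio of -2.25. KSR2, a scaffold of the RAF kinase cascade, was at 1.07 CPM with shJMJD3 and 4.77 CPM with shUTX, against 3.61 and 3.28 CPM in the control columns. In each of these 4 the controls lay between the hairpins. The other genes of the rule were PARM1 (-2.17), PARD3B, a cell polarity gene (-2.09), RASSF8 (-1.99), CHRM3, a muscarinic receptor (-2.05), GLT25D2, a collagen galactosyltransferase (-2.09), and FAM26F (-2.64), all given as log2 ratios.
Among protein-coding members at 200 counts or more the lowest ratio after SYNDIG1 was that of STC1, the hypoxia-responsive stanniocalcin, at 2.91 CPM with shJMJD3 and 14.4 CPM with shUTX, against 2.90 and 5.16 CPM in the control columns. The shJMJD3 level was that of the larger control column, and the shUTX level was above both. TRIO, a guanine nucleotide exchange factor for small GTPases, had a ratio of -1.80 and a matched ratio of -2.07, and PDE4B, a cyclic AMP phosphodiesterase, -1.75 and -1.24. GTF2IRD1, LTBP1, DERL3, ATP6V0A4 and KCTD12 lay between -1.70 and -1.64.

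NOTCH pathway genes did not stand together. Of 39 measured, 8 were at least 1.5-fold higher with shJMJD3 and 6 lower, with 5 and 4 in the matched ratio, and the median was -0.25. Shares over all protein-coding members were 11.6% higher and 6.07% lower, with 7.17% and 5.86% in the matched ratio. NOTCH1 was at 541 CPM with shJMJD3 and 932 CPM with shUTX, against 915 and 1162 CPM in the control columns, a log2 ratio of -0.45. MYC was at 242 CPM with shJMJD3 and 436 CPM with shUTX, against 409 and 489 CPM in the control columns, a log2 ratio of -0.51. Both were lower with shJMJD3 than with shUTX by less than 1.5-fold under TMM and by more than 1.5-fold with column totals (-0.78 and -0.85). The feedback inhibitor NRARP was at 74.6 CPM with shJMJD3 and 138 CPM with shUTX, against 197 and 197 CPM in the control columns. Among the HES and HEY genes of the list, ratios were -0.31 (HES1), -0.59 (HES4), -0.66 (HES5), -0.84 (HEY1) and -0.18 (HEY2). HES6 went the other way, at 0.67. The HEY1 ratio came from 625 counts with shJMJD3 and 822 with shUTX, and the matched ratio of HES1 was -0.06. DTX1, PTCRA (the pre-T cell receptor chain) and NOTCH3 lay at 0.07, 0.08 and 0.01, and the growth receptors IL7R and IGF1R at -0.50 and -0.26.
On the high side MFNG, a fringe glycosyltransferase that modifies NOTCH receptors, was at 38.7 CPM with shJMJD3 and 4.99 CPM with shUTX, against 7.98 and 6.84 CPM in the control columns, a log2 ratio of 3.28 (3.16 to 3.42) and a matched ratio of 2.84. NOTCH2 had a ratio of 0.89 and the ligands DLL1 and JAG1 ratios of 0.93 and 0.19. DTX3L, which pairs with the ADP-ribosyltransferase PARP9, was at 22.6 CPM with shJMJD3 and 11.7 CPM with shUTX, a ratio of 1.29.

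Among T cell genes 3 of 41 were at least 1.5-fold higher and 3 lower, around a median of -0.04. Over all protein-coding members 11.6% were higher and 6.07% lower. CD27, a costimulatory receptor, was at 49.0 CPM with shJMJD3 and 159 CPM with shUTX, against 71.1 and 84.4 CPM in the control columns, a log2 ratio of -1.37 (-1.41 to -1.33). The shUTX column was well above both controls and the shJMJD3 column below them. RAG1, the recombinase of antigen receptor genes, had a ratio of 0.77, the thymocyte antigen CD1A 1.03 and the transcription factor ETS1 -0.74. CD3D was at 771 CPM with shJMJD3 and 945 CPM with shUTX, against 810 and 1014 CPM in the control columns, so the label of a T cell line held in every column. Among the chemokine receptors CCR8 had a ratio of 1.37, CCR9 0.81 and CCR4 -1.34.
LTB, which encodes lymphotoxin beta, was at 13.99 CPM with shJMJD3 and 3.90 CPM with shUTX, against 4.48 and 4.06 CPM in the control columns, a ratio of 2.17. It was 1 of 2 NF-kB subunits and targets at least 1.5-fold higher of 22, with 0 lower. TNF, the other, had a ratio of 1.18 and a matched ratio of -0.83, on 225 counts with shJMJD3 and 72 with shUTX. CCND1, a G1 cyclin that CUTLL1 made little of, held 420 counts with shJMJD3 and 57 with shUTX, against 58 and 45 in the control columns, a ratio of 2.40. CDKN2A, the p16 and ARF gene, had a ratio of 1.22, and TLX1, an oncogenic homeobox factor, 3.59 on 58 counts with shJMJD3 and 2 with shUTX. NKX2-5, another homeobox gene, was abundant at 61.9 CPM with shJMJD3 and 149 CPM with shUTX, against 123 and 152 CPM in the control columns.

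Immediate early genes, which follow mitogen and receptor signals, were higher in 3 and lower in 8 of 25, with 4 and 5 in the matched ratio. The lower ones included FOSL2 (-1.14), NR4A1 (-1.01), EGR3 (-0.91) and EGR1 (-0.83). Their matched ratios were -1.09, -0.82, -0.83 and -0.33. DUSP4 and DUSP6, phosphatases that switch off ERK, were higher with shJMJD3. DUSP4 was at 12.7 CPM with shJMJD3 and 5.74 CPM with shUTX, against 3.10 and 5.29 CPM in the control columns, and DUSP6 at 57.1 CPM with shJMJD3 and 34.2 CPM with shUTX, against 23.2 and 35.9 CPM in the control columns. Their log2 ratios were 1.48 and 1.07. The p53 targets gave 1 higher and 2 lower of 24. The shares over all protein-coding members, for both of these lists, were 11.6% higher and 6.07% lower.

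Targets of ATF4, the factor that answers amino acid shortage and endoplasmic reticulum stress, had 10 of 27 genes at least 1.5-fold lower with shJMJD3 and 1 higher, with a median log2 ratio of -0.42. For this list and the metabolic lists that follow, the shares over all protein-coding members were 6.07% lower and 11.6% higher. In the matched ratio they were 5.86% and 7.17%. ASNS, asparagine synthetase, was at 17.7 CPM with shJMJD3 and 50.3 CPM with shUTX, against 25.8 and 38.8 CPM in the control columns, a log2 ratio of -1.17. TRIB3, a pseudokinase that binds AKT, had a ratio of -1.08 and ATF5 one of -1.10. The matched ratios of ASNS, TRIB3 and ATF5 were -0.81, -0.61 and -0.71. The gene that was higher was ATF4 itself, at 1.62, with a matched ratio of 0.92. Control-part differences in this list had a median of -1.25, and in the matched ratio 4 genes were lower and 1 higher, around -0.19. What part the library split has in the lower ratios was not tested.
Glycolysis and hypoxia genes showed 3 higher and 7 lower of 34, a median of -0.41, a median control-part difference of -1.19 and a matched median of -0.08. P4HA2, a collagen prolyl hydroxylase subunit, and PFKFB4, which sets fructose bisphosphate levels, had log2 ratios of -1.35 and -1.21 and matched ratios of -0.77 and -0.66. GAPDH, TPI1 and PGAM1, which have many processed pseudogenes, had ratios of 1.59, 1.40 and 3.04 and matched ratios of 0.19, -0.04 and 0.17. Their control-part differences were 2.47, 2.52 and 4.23. Cholesterol and fatty acid synthesis genes gave 2 higher and 3 lower of 32, with a median of -0.07.
Genes of heme breakdown and antioxidant defence gave 10 higher and 0 lower of 23, and 6 higher in the matched ratio. BLVRB, a biliverdin reductase, was at 2.74 CPM with shJMJD3 and 0.334 CPM with shUTX, against 0.225 and 0.395 CPM in the control columns. GSTM3, a glutathione transferase, had a log2 ratio of 2.25 and a matched ratio of 2.41, while FTH1, the ferritin heavy chain, had 2.46 and 0.09. Proteoglycan and sulfation genes gave 8 higher and 3 lower of 27, with a median of -0.09. SDC4, a cell surface heparan sulfate proteoglycan, was at 4.30 CPM with shJMJD3 and 0.521 CPM with shUTX, against 0.787 and 1.41 CPM in the control columns, and CHST15, a chondroitin sulfotransferase, at 15.7 CPM with shJMJD3 and 3.73 CPM with shUTX, against 2.74 and 4.39 CPM in the control columns.

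Most chromatin regulators lay within 1.5-fold. Of 27 PRC2 and PRC1 subunits 3 were higher and 0 lower, and EZH2, the methyltransferase that opposes both targets, had a log2 ratio of 0.37. PHC1, a PRC1 subunit, had the highest ratio at 2.93, with a matched ratio of 0.65. Of 18 other histone demethylases 0 were higher and 2 lower. These were KDM5B, which demethylates H3K4, at -0.85, and JHDM1D (KDM7A), at -0.61, with matched ratios of -0.55 and -0.09. Of 15 genes of the H3K4 methyltransferase complexes only DPY30 passed 1.5-fold, at 0.63, and none did in the matched ratio. Cell cycle genes of S phase and G2/M were near 0, with a median of 0.03, 2 of 35 higher (CDC20 at 0.79 and MKI67 at 0.73) and 0 lower.

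Several lists were higher in the ratio, and some of them were near 0 or below it in the matched ratio. Cytosolic ribosomal protein genes had 43 of 79 at least 1.5-fold higher and a median log2 ratio of 0.81, beside a control-part median of 1.56 and a matched median of -0.01. RPL7 was at 108 CPM with shJMJD3 and 3.56 CPM with shUTX, against 106 and 4.65 CPM in the larger and smaller control columns. The larger and smaller control columns were apart in the same direction as the hairpins. The mitochondrial ribosomal protein genes gave a median of 0.05 and 3 higher of 77. Genes of ribosome biogenesis that MYC drives gave 6 higher of 35 and 2 in the matched ratio, with NPM1, the nucleolar phosphoprotein, at 2.08 and 0.46. Nuclear genes of the respiratory chain gave 16 higher of 87 and 3 in the matched ratio.
The 12 messages of the mitochondrial genome that were measured had a median log2 ratio of 0.89, 8 of them at least 1.5-fold higher, and a matched median of -0.35 with 0 higher and 3 lower. MT-CO1, a subunit of cytochrome c oxidase, was at 502 CPM with shJMJD3 and 55.5 CPM with shUTX, against 664 and 51.9 CPM in the control columns. Replication-dependent histone genes, whose messages end in a stem-loop and carry no poly-A tail, had 29 of 68 higher and 0 lower, with 22 and 0 in the matched ratio. Their median log2 ratio was 0.32, their matched median 0.40 and their control-part median -0.45. The histone list thus stayed above 0 in the matched ratio. Of 265 small nucleolar and Cajal body RNAs 70 were higher and 10 lower, with 32 and 11 in the matched ratio. Over all members, small RNAs included, 19.4% were at least 1.5-fold higher and 6.2% at least 1.5-fold lower. RMRP and RPPH1, the RNAs of the RNase MRP and RNase P enzymes, were abundant in all CUTLL1 columns and had log2 ratios of 0.58 and 0.13. In CEM neither exceeded 39.3 CPM.

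**Figure D4:**
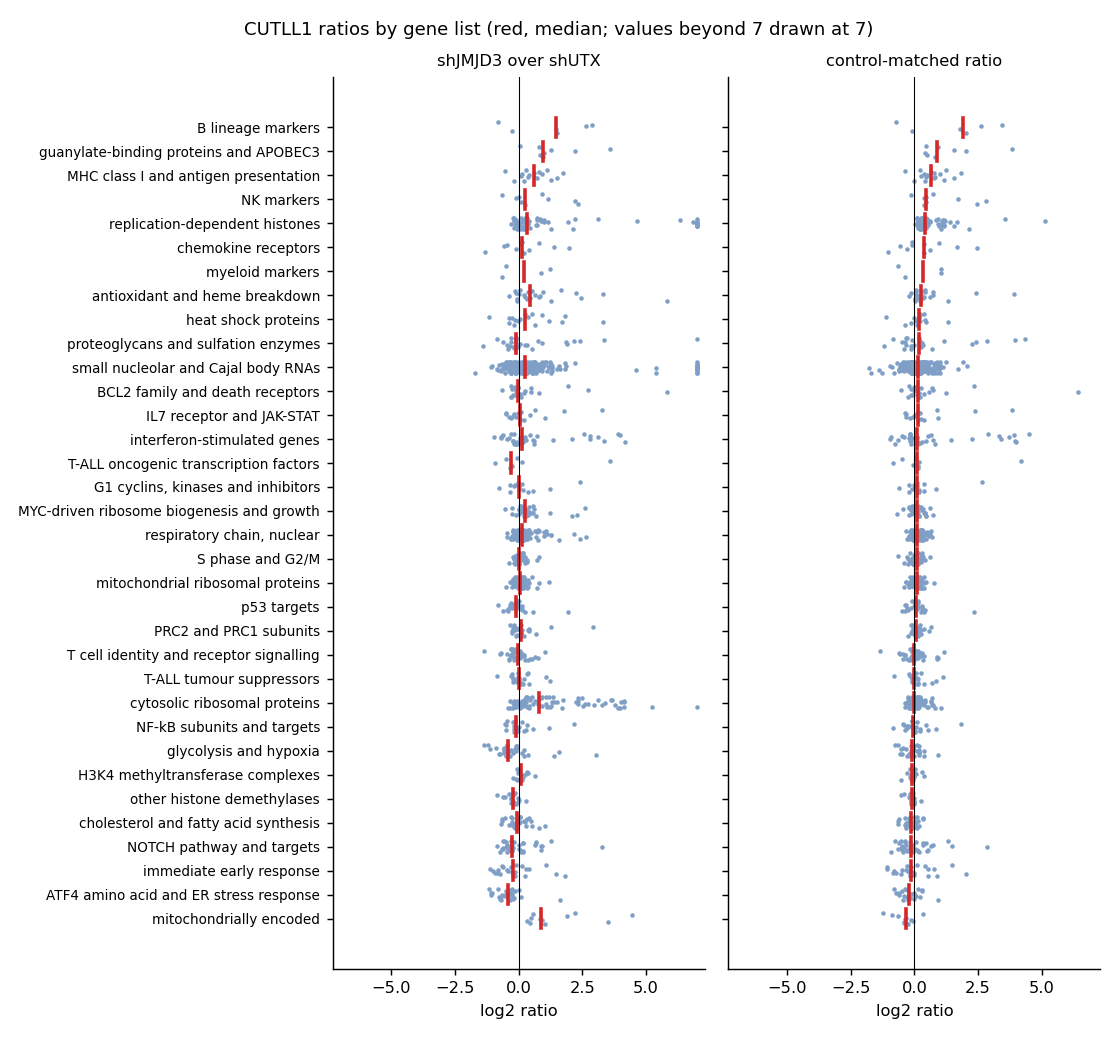
Log2 ratio of shJMJD3 over shUTX (left) and control-matched log2 ratio (right) of each measured gene by list in CUTLL1, with 1 point per gene and a red bar at the median. Ribosomal protein genes have a median of 0.81 on the left and -0.01 on the right, while MHC class I genes stand at 0.61 and 0.64.

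Markers of other cell types were low, though not all were absent. MS4A1 and PAX5, which define B cells, had 0 counts in every CUTLL1 column, and LYZ, a myeloid marker, was at 0 CPM with shJMJD3 and 0.0393 CPM with shUTX, against 0.0155 and 0.0277 CPM in the control columns. The summed level of 15 B lineage markers was 48.7 CPM with shJMJD3 and 63.9 CPM with shUTX, against 45.8 and 59.3 CPM in the control columns. The 15 myeloid markers summed to 11.5 CPM with shJMJD3 and 18.0 CPM with shUTX, against 8.28 and 11.1 CPM in the control columns, and the 16 NK markers to 66.1 CPM with shJMJD3 and 55.1 CPM with shUTX, against 38.2 and 58.7 CPM in the control columns. Of the B lineage markers 4 were at 0 with shJMJD3 and 3 with shUTX, of the myeloid markers 4 and 5, and of the NK markers 3 and 3. CD68, at 7.48 CPM with shJMJD3 and 14.7 CPM with shUTX, made up most of the myeloid sum. The B lineage marker CD79A was at 4.11 and 1.89 CPM. The 12 fibroblast markers summed to 11.7 CPM with shJMJD3 and 9.03 CPM with shUTX, most of it DCN (9.47 and 5.32 CPM). DCN had a log2 ratio of 1.16 and a matched ratio of 1.74. The 12 erythroid markers summed to 12.7 CPM with shJMJD3 and 17.7 CPM with shUTX. The part of other cells in the results above was not tested. Among the few measured at 50 counts or more, 4 of 6 B lineage markers were at least 1.5-fold higher and 1 lower (median 1.47, matched median 1.91). The lower B lineage marker had a log2 ratio of -0.82, and the B lineage sum in CPM was also lower with shJMJD3. Of 9 NK markers 4 were higher and 1 lower, the lower at -0.67. Of 4 myeloid markers 2 were higher and 1 lower. The B lineage and NK genes named next are all among the higher ones. CD37, a leukocyte tetraspanin, was at 5.21 CPM with shJMJD3 and 0.884 CPM with shUTX, against 0.709 and 1.22 CPM in the control columns. CD48, the ligand of CD244, was at 26.7 CPM with shJMJD3 and 7.19 CPM with shUTX, against 6.02 and 10.6 CPM in the control columns. NCR3, an activating NK receptor, and IGLL1, the surrogate light chain, had log2 ratios of 2.35 and 2.63. In bulk RNA, more cells with a transcript and more of it per cell cannot be told apart.

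CEM cells offered the same contrast in libraries that share none with CUTLL1. There KDM6B and KDM6A had log2 ratios of -1.69 and 0.99, the same directions as in CUTLL1. Among 11792 protein-coding genes measured in both lines, 1171 were at least 1.5-fold higher with shJMJD3 in CUTLL1 and 2455 in CEM, and 359 in both. These 359 were 30.7% of the CUTLL1 genes and 14.6% of the CEM genes. Of 585 lower in CUTLL1 and 2453 in CEM, 275 were lower in both, 47.0% and 11.2% of each. Higher in CUTLL1 and lower in CEM were 252 genes, and the reverse held for 137. Genes past 1.5-fold in the CUTLL1 matched ratio as well as in both ratios numbered 175 higher and 221 lower. Over all 12407 protein-coding genes measured in CEM, 2643 (21.3%) were higher and 2690 (21.7%) lower.
The genes with the highest lesser ratio of both lines were HSPA1A, the inducible heat shock protein, at 3.31 in CUTLL1 and 5.83 in CEM, PGAM1 (3.04 and 3.25), IGLL1 (2.63 and 4.80), FAM72B (3.90 and 2.42), NCR3 (2.35 and 3.13) and UNC93B1, a chaperone of endosomal Toll-like receptors (3.30 and 2.29). In the CUTLL1 matched ratio HSPA1A stood at 1.32, PGAM1 at 0.17, IGLL1 at 2.60, FAM72B at 0.69, NCR3 at 2.47 and UNC93B1 at 1.63. The lowest were EHD3 (-3.29 and -4.30), ESRP1, an epithelial splicing regulator (-2.36 and -2.86), PARM1 (-2.17 and -3.23), PARD3B (-2.09 and -2.82), GLT25D2 (-2.09 and -4.34) and ANKRD34C (-1.81 and -5.46).
Gene groups are given side by side for both lines. The interferon list had 7 higher and 13 lower of 36 in CEM, with OAS3 at 0.80, OAS2 at -0.22, BST2 at 0.94 and LGALS3BP at -0.11. MHC class I genes were higher in 8 and lower in 0 of 17 in CEM, with HLA-B at 1.38, PSMB9 at 1.07 and B2M at 1.56. Glycolysis and hypoxia genes had a CEM median of 2.62, 32 of 34 higher, against the CUTLL1 median of -0.41. ATF4 targets were lower in 17 of 27 in CEM, around -1.03. The CEM median of the S phase and G2/M list was 1.17. Differences between the lines were not tested.

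**Figure D5:**
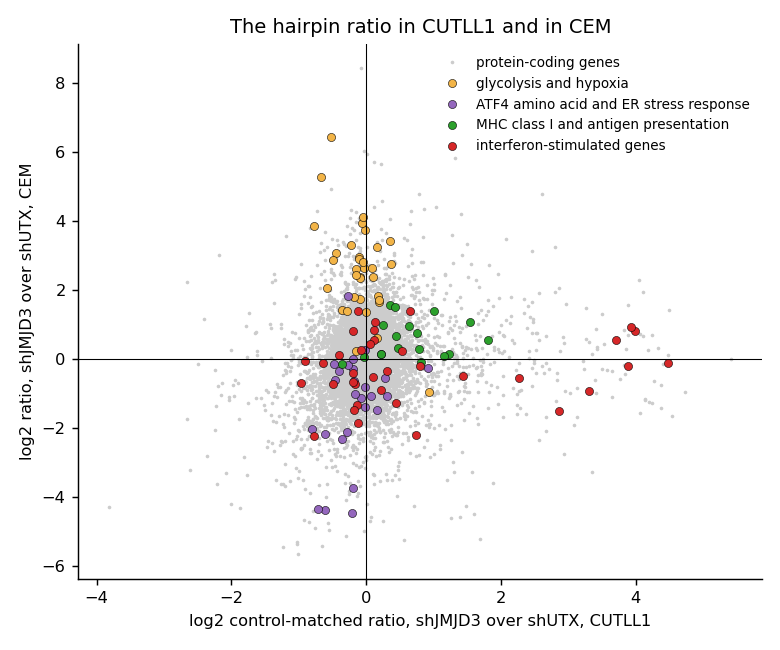
Log2 ratio of shJMJD3 over shUTX in CEM (vertical axis) against the control-matched log2 ratio in CUTLL1 (horizontal axis) for protein-coding genes measured in both lines. Glycolysis and hypoxia genes stand high in CEM (median 2.62) and near 0 in CUTLL1 (matched median -0.08), and LGALS3BP stands at -0.11 in CEM and 4.49 in CUTLL1.

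With the lines as replicates, edgeR's quasi-likelihood test over 24003 genes called 0 (0%) below 0.05 after Benjamini-Hochberg adjustment. Before adjustment 1945 genes had a p below 0.05, and the smallest adjusted value was 0.0633. DESeq2 called 283 of 22111, 203 higher and 80 lower. KDM6B and KDM6A had edgeR adjusted p-values of 0.506 and 0.506, PSMB9 0.419, HLA-B 0.514 and EHD3 0.310. The DESeq2 adjusted p-values of the same genes were 0.0366, 0.0193, 0.000612, 0.0189 and 2.27e-07, all below 0.05. EHD3 was named for its ratios in both lines, PSMB9 for its CUTLL1 ratio within its list and HLA-B after its values were seen. The genes given next were likewise named by their CUTLL1 ratios or after their values were seen. The p-values of all these genes thus rest in part on the values that chose them. For OAS3, BST2, GBP1, LGALS3BP, OAS2 and MX1 the DESeq2 values were 0.0733, 0.0937, 0.142, 0.312, 0.407 and 0.776, none below 0.05. The test measures the spread between 2 lines, and it leaves 2 residual degrees of freedom. The authors' deposited table marked 15399 of 29922 genes at a p-value under 0.001, 4049 higher and 11350 lower with shJMJD3. That test compares the reads of these pooled columns, not the conditions.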

How the data were processed

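RNA was enriched for poly-A or depleted of ribosomal RNA, made into strand-marking dUTP libraries and read as 50-base single reads, per the labels' protocols. CASAVA, TopHat and hg19 appear without versions in the submitters' processing notes, and no source used here names the counting program or its strand setting. The authors deposited raw read counts per gene, 1 pooled column per hairpin and line, with log2 ratios, DEGseq p-values and q-values and z scores, per the file headers. How many of the libraries each column holds is not given. Missing values, found where neither column had a count, were read as 0.

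From the deposited counts, TMM factors (edgeR) and a prior count of 2 gave log2 ratios, and exact binomial 95% intervals cover counting error only. Genes were called at 2-fold, and at 1.5-fold in lists. Column totals ran from 70280185 counts (CEM shJMJD3) to 258014046. Across lines, edgeR's quasi-likelihood test used all 6 columns with line as a block, and DESeq2 was the alternative. The steps were tested on simulated counts. GENCODE release 29 gave biotypes for 17189 members and no coordinates; promoters came from RefSeq. Of the symbols, 250 members share one with another gene.

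The members and gene lists were chosen with earlier results of these data known. The rule for named genes took the targets, a NOTCH panel, the 10 highest and 10 lowest protein-coding ratios at 200 counts or more, the 10 and 10 by the lesser of ratio and matched ratio, the 6 and 6 by the lesser of both lines, and up to 4 genes per list. Named outside it, after their values were seen, were further members of the interferon, MHC class I, NOTCH, immediate early and glycolysis lists, EZH2, CD3D, abundant structural RNAs and the receptors and enzymes of the last section. Some genes that the rule names are not described here. Alternatives were column totals, DESeq2 size factors, TMM over protein-coding genes, the matched ratio, a prior count of 0.5, count minimums of 10 and 200, protein-coding genes only and a 1.5-fold threshold.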

Additional observations from a re-analysis of the deposited data

Results flagged for a closer look

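Of the genes named in the text with at least 50 counts in either CEM column, 13 were at least 2-fold apart between shJMJD3 and shUTX in opposite directions in CUTLL1 and CEM, with 1 pooled column per hairpin and line, so the difference between lines was not tested. Higher with shJMJD3 in CUTLL1 and lower in CEM were MX1 (log2 ratio 2.57, against -1.51 in CEM), CCND1 (2.40, against -1.68), DUSP4 (1.48, against -1.68), CD1A (1.03, against -1.52), SOCS2 (1.77, against -1.60), TNFRSF25 (3.92, against -1.28) and RN7SK (5.09, against -1.95). For RN7SK the control-part difference in CUTLL1 was 6.91. Lower in CUTLL1 and higher in CEM were CD27 (-1.37, against 2.29 in CEM), CCR4 (-1.34, against 2.38), FAM26F (-2.64, against 2.23), KSR2 (-1.82, against 3.01), P4HA2 (-1.35, against 3.87) and PFKFB4 (-1.21, against 5.28). P4HA2, FAM26F, CCR4 and SOCS2 held under 100 counts in each CUTLL1 column of the pair.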

How the results depend on the processing

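The count of genes at least 2-fold higher, 2680 in the main setting, was 800 by the matched ratio, 4304 at 10 counts or more, 1762 at 200 counts or more, 922 among protein-coding genes only, and 153 among protein-coding genes within 1.5-fold between the control parts (chosen after seeing the data). The count of genes at least 2-fold lower, 306 in the main setting, was 860 with column totals, 966 at 10 counts or more, 143 at 200 counts or more, 1133 at 1.5-fold and 86 within the control-alike genes. KDM6B moved to -1.37 and KDM6A to 0.75 with column totals and kept their directions under every scaling. Across lines DESeq2 called 283 genes, column totals 6 and no filter 55, against 0 by edgeR as designed; the cause was not tested. In the matched ratio the sign turned for TPI1 (-0.036), MT-CO1 (-0.39), RN7SK (-0.35) and TNF (-0.83) and for the medians of cytosolic ribosomal proteins (-0.0077) and mitochondrially encoded messages (-0.35). No paired analysis was possible because the columns pool the replicates, and for the same reason no replicate could be left out. Genes under about 100 counts, including OAS1, OASL, GBP1 and APOBEC3B with shUTX, rest on few reads.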

Other observations

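The 5 lymphocyte surface receptors given here were in no list and were picked after their values were seen, so they say nothing of such receptors as a group. TNFRSF25, a death domain receptor of T cells, was at 4.08 CPM with shJMJD3 and 0.324 CPM with shUTX, against 0.271 and 0.395 CPM in the larger and smaller control columns. SLAMF1 was at 3.99 CPM with shJMJD3 and 0.462 CPM with shUTX, against 0.535 and 0.956 CPM in the control columns, and SLAMF6, a homophilic receptor of the same family, had a log2 ratio of 2.32 and a matched ratio of 2.94. The cytokine receptor chains IL15RA and IL12RB1 had log2 ratios of 3.51 (117 counts with shJMJD3 and 6 with shUTX) and 2.60 (243 counts with shJMJD3 and 28 with shUTX). Their control-part differences ran from -5.76 (SLAMF1) to -0.10 (IL12RB1). In all 5 the shJMJD3 column was the highest of the CUTLL1 hairpin and control columns. The aldo-keto reductase AKR1C3, which reduces steroids and prostaglandins, was at 10.7 CPM with shJMJD3 and 1.56 CPM with shUTX, against 0.957 and 1.41 CPM in the control columns, and APOL3, a relative of APOL1, had a log2 ratio of 3.82.

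On the low side, picked in the same way, KIT, the stem cell factor receptor, had a log2 ratio of -1.71 and a matched ratio of -1.44 (45 counts with shJMJD3 and 112 with shUTX). HOXA2 had a ratio of -1.55. YAP1, the Hippo pathway coactivator, had a ratio of -1.59 and a matched ratio of -2.26, and QDPR, which regenerates tetrahydrobiopterin, -1.64 and -1.89. Set against its own control column, NOTCH1 stood at a log2 ratio of -0.62 with shJMJD3 and -0.29 with shUTX, MYC at -0.61 and -0.13, and NRARP at -1.26 and -0.48. Over chromosomes with at least 100 protein-coding members, the median log2 ratio was lowest on chromosomes 4 and 14, at -0.19 on each, with matched medians of -0.09 and -0.16.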
